A study of Mus musculus with 10 samples.

Results

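The 10 genes described here belong to the cellular response to low oxygen and to glucose breakdown: Vegfa, Slc2a1, Hk2, Pgk1, Ldha, Pdk1, Bnip3, Egln3, Car9 and Hif1a. They were taken from the deposited expression table by gene symbol, each symbol had a single line, and all 10 passed the filter for testing, a mean over tumours of 1 FPKM or more (10 of 14496 lines tested and of 55020 lines in all). FPKM are fragment numbers scaled to transcript length and to library size; the unit was read from the values, as the table does not name it. The samples were 10 subcutaneous tumours of Hepa1-6, a mouse hepatoma cell line, grown for 4 weeks in C57/BL6 mice. GSK343, which blocks the histone methyltransferase EZH2, was given in 5 of them and vehicle in 5. The vehicle label was reached by elimination, since only the GSK343 titles name a treatment. The treatment protocol also mentions a control and an anti-asialo-GM1 antibody, and which tumour received which is not labelled, nor are the age and sex of the mice. P-values of group differences set them against the spread between these tumours, and those of correlations come from reordering the tumours. The tumours hold host cells beside Hepa1-6 cells, and in bulk RNA fewer cells of a type and less RNA per cell cannot be told apart.

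Hif1a encodes the oxygen-regulated subunit of the transcription factor HIF-1. With oxygen present, prolyl hydroxylases such as EGLN3 (PHD3) mark this subunit for destruction, so its activity is set mainly at the protein level. With little oxygen the protein persists, pairs with ARNT and binds DNA at hypoxia response elements, whose core is ACGTG or GCGTG. Its targets include Vegfa, the growth factor that draws in blood vessels, and the genes that shift cells towards glycolysis. Hypoxia and glycolysis are prominent in fast-growing liver tumours.

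The promoter windows of 4 members are shown because Pgk1, Egln3 and Bnip3 moved together most closely across tumours, while Hif1a had r near 0 with Pgk1 and Egln3. Each runs 5′ to 3′ on the gene's strand, from 250 bases before the start to 50 after it, from RefSeq on GRCm38.p6. Capitals mark ACGTG or GCGTG on either strand, so also CACGT and CACGC, and CACGTG is ACGTG on both strands at once.
Pgk1 (chrX:106186850-106187149, plus strand): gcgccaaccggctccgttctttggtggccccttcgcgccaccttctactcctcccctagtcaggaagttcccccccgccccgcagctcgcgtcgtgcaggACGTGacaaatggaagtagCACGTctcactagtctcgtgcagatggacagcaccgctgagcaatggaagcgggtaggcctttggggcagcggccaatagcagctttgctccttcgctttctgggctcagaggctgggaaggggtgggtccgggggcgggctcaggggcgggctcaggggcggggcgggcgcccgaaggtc
Egln3 (chr12:54203825-54204124, minus strand): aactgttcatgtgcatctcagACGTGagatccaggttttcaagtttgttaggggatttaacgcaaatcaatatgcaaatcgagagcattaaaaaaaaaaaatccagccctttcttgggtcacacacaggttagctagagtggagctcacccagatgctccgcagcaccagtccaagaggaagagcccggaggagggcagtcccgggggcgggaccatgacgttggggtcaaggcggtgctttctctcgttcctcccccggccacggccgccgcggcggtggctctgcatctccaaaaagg
Bnip3 (chr7:138909457-138909756, minus strand): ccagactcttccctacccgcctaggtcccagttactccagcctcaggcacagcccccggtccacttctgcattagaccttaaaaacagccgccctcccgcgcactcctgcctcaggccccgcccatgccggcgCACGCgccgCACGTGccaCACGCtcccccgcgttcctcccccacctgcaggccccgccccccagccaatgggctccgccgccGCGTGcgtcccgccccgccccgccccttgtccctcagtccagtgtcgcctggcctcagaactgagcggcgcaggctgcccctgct
Hif1a (chr12:73907617-73907916, plus strand): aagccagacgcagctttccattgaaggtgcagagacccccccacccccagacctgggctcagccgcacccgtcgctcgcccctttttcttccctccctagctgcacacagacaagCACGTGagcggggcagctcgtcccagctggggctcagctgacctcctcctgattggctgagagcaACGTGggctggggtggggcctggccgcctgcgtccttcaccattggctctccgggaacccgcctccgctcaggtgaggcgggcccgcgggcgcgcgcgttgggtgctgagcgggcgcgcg
Windows were found for 10 of 10 members, 13 in all, since Vegfa, Ldha and Pdk1 have 2 starts each. Either motif stood in 11 of these 13 windows, against 43.8% of all 32851 windows. ACGTG, counted on its own, stood in 9 of 13, against 19.6% of all windows. Bnip3 held 4 sites, Pgk1 and Hif1a 2 each and Egln3 1. The first Ldha window held 5 sites, and the first Vegfa window held none of these letters.

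The liver tumour cell markers ranged widely in level, and 1 tumour stood apart. Afp, the fetal liver protein of hepatomas, lay at 1465 to 2154 FPKM in GSK343 tumours and 1954 to 2424 FPKM in vehicle tumours. Apoa2 of the same list averaged 2.07 FPKM in GSK343 and 3.58 FPKM in vehicle tumours. Vehicle replicate 1 had the highest value of all 10 tumours in 8 of the 10 members, in 13 of 24 other hypoxia-induced genes and in 9 of 12 liver tumour cell markers. The same tumour was highest in 13.1% of all lines tested. It also had the highest summed level of 7 red blood cell genes, at 2878 FPKM, against 398 to 2062 FPKM in GSK343 tumours and 176 to 499.6 FPKM in the other vehicle tumours. Slc4a1 of that list was listed at 0 in some tumours. Muscle genes of the host, 12 in the list, summed to 72.2 to 529 FPKM in GSK343 tumours and 3.65 to 126 FPKM in vehicle tumours, with Myl1, Tnnc2, Ckm, Myh1, Myh4 and Mb at 0 in some. Keratinocyte genes, 7 in the list, summed to 1.73 to 24.9 FPKM in GSK343 tumours and 2.79 to 123 FPKM in vehicle tumours. GSK343 replicates 3 and 5 had the highest mitochondrial shares of the summed FPKM, 7.17% and 7.11%, against a range of 2.63% to 5.05% over the remaining 8 tumours. The part of these differences in the results was not tested, and the members' differences are given with and without vehicle replicate 1.

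**Figure D1:**
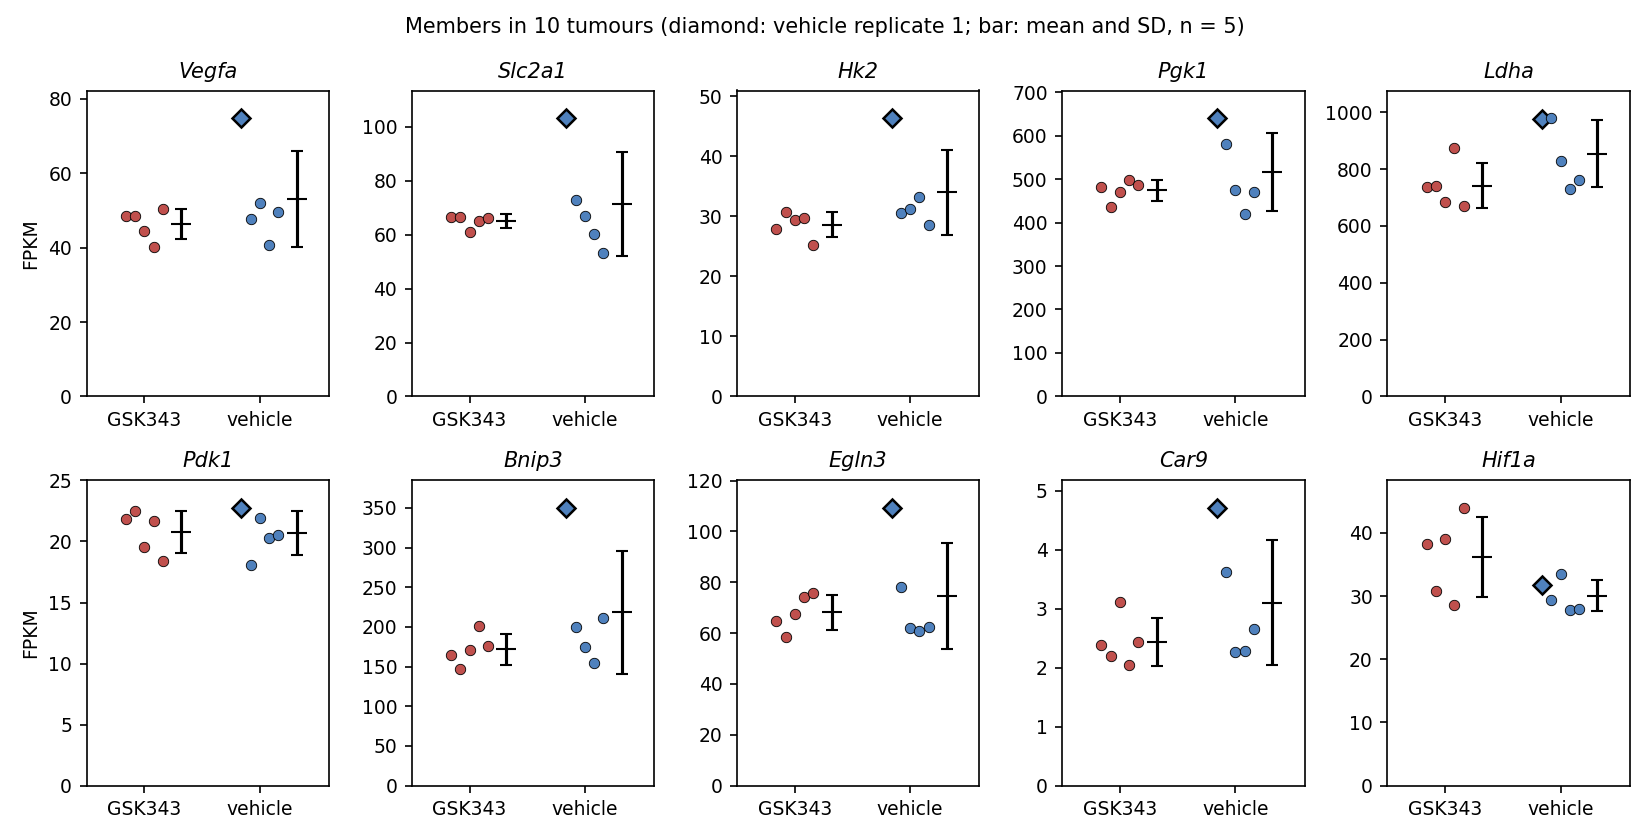
FPKM of the 10 members (vertical axes from 0) in the GSK343 tumours (red) and the vehicle tumours (blue), 1 point a tumour, with mean and SD of 5. The diamond is vehicle replicate 1, which lies above every other tumour in 8 panels and not in those of Ldha and Hif1a.

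No member differed between the treatments beyond the spread between tumours. With limma on log2(FPKM + 1), 0 of 10 members had a Benjamini-Hochberg adjusted p under 0.05, as did 0.0828% of all lines tested (0.069% higher and 0.0138% lower in GSK343 tumours). At an unadjusted p under 0.05 there were 0 of 10 as well, against 10.7% of lines higher and 6.86% of lines lower in GSK343 tumours. The groups overlapped for every member. The mean was lower in GSK343 tumours for 8 of 10 members, against 52.4% of all lines with a log2 fold change below 0. The median log2 fold change of the members was -0.14, against -0.01 over all lines tested. Both values rested on vehicle replicate 1: without it, 6 of 10 members had a log2 fold change below 0, against 54.8% of all lines, and the median was -0.03, against -0.02 over all lines.

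Vegfa (ENSMUSG00000023951.17, mm10 chromosome 17, 46016993 to 46032369, minus strand) encodes the ligand that drives endothelial growth. It measured 48.4, 48.6, 44.5, 40.1 and 50.4 FPKM in GSK343 replicates 1 to 5. In vehicle replicates 1, 2, 3, 5 and 6 it measured 74.8, 47.8, 52.0, 40.8 and 49.5 FPKM. A single vehicle tumour lay above the range of all others, and the remaining values of both groups were intermixed. The means were 46.4 ± 4.12 FPKM in GSK343 and 53.0 ± 12.9 FPKM in vehicle tumours (SD, n = 5 each; log2 fold change -0.16, 95% interval -0.47 to 0.15, limma adjusted p = 0.570). Without vehicle replicate 1 the log2 fold change was -0.03, with an interval from -0.24 to 0.18.

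Glucose enters the cell through GLUT1, encoded by Slc2a1 (chromosome 4, 119108711 to 119137983). Slc2a1 measured 66.6, 66.6, 60.8, 65.1 and 66.2 FPKM in the GSK343 tumours. It measured 103, 73.0, 67.0, 60.1 and 53.3 FPKM in the vehicle tumours, in the same order of replicates as above. The GSK343 tumours lay within a narrow band inside the wider range of the vehicle tumours. The means were 65.1 ± 2.46 and 71.3 ± 19.3 FPKM (GSK343, then vehicle; log2 fold change -0.09, limma adjusted p = 0.770). Without vehicle replicate 1 the sign turned (0.05, interval -0.16 to 0.25).

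Hk2 (chromosome 6, 82725025 to 82774454) encodes the inducible hexokinase that traps glucose as its phosphate. It measured 27.95, 30.8, 29.4, 29.8 and 25.3 FPKM in GSK343 tumours, against 46.3, 30.5, 31.3, 33.3 and 28.6 FPKM in vehicle tumours. Vehicle replicate 1 stood apart, and the other vehicle values overlapped the GSK343 range or lay just above it. The log2 fold change was -0.22 (interval -0.49 to 0.05, limma adjusted p = 0.365) with all tumours and -0.11 without vehicle replicate 1.

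Pgk1 (chromosome X, 106187100 to 106203699) encodes phosphoglycerate kinase, an ATP-yielding step of glycolysis. It measured 481, 436, 470, 499 and 485 FPKM in GSK343 tumours, against 640, 580, 475, 420 and 470 FPKM in vehicle tumours. Both vehicle replicates 1 and 2 lay above every GSK343 tumour, and vehicle replicate 5 below them. The log2 fold change was -0.11 (limma adjusted p = 0.637), and -0.03 without vehicle replicate 1. Pgk1-rs7, a copy of the gene with its own line, was listed at 102 to 114 FPKM in GSK343 and 94.9 to 146 FPKM in vehicle tumours. Reads of such near-identical copies cannot be assigned with certainty, so the level of Pgk1 is uncertain to that extent.

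Ldha (chromosome 7, 46841475 to 46855627) encodes the lactate dehydrogenase subunit that turns pyruvate into lactate, and it was the most abundant member. It ranged from 672 to 874 FPKM in GSK343 tumours, with a median of 737, and from 729 to 979 FPKM in vehicle tumours, with a median of 830. The means were 742 ± 79.98 and 855 ± 117 FPKM (GSK343, then vehicle), and the log2 fold change of -0.20 did not pass (limma adjusted p = 0.371). Without vehicle replicate 1 it was -0.15. Vehicle replicates 1 and 2, at 974.8 and 979 FPKM, were the highest. Pdk1 (chromosome 2, 71873224 to 71903858), a kinase that holds pyruvate out of the mitochondrial cycle, varied least. Its coefficient of variation over the 10 tumours was 8.01%, against a median of 15.6% over all lines tested. Pdk1 ranged from 18.4 to 22.5 FPKM in GSK343 and from 18.1 to 22.8 FPKM in vehicle tumours (log2 fold change 0.01, interval -0.17 to 0.19, and 0.04 without vehicle replicate 1). Its log2 fold change changed sign without any 1 of GSK343 replicates 1, 2 and 4 or vehicle replicates 2 and 5.

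Bnip3 (chromosome 7, 138890836 to 138909519), a mitochondrial protein that promotes removal of mitochondria in hypoxic cells, was the member in which vehicle replicate 1 stood highest. It measured 165, 147, 171, 201 and 176 FPKM in GSK343 tumours, against 351, 200.3, 175, 155 and 211 FPKM in vehicle tumours. Vehicle replicate 1 was at 2.01 times the median of the 9 other tumours, and the others of both groups overlapped. The log2 fold change was -0.29 (interval -0.71 to 0.13, limma adjusted p = 0.453), and -0.10 without that tumour.

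Egln3 (chromosome 12, 54178981 to 54203860) encodes the prolyl hydroxylase that is itself induced by HIF. It measured 64.8, 58.7, 67.5, 74.0 and 75.8 FPKM in GSK343 tumours, against 109, 78.2, 62.0, 61.0 and 62.5 FPKM in vehicle tumours. Vehicle replicates 1 and 2 were highest and GSK343 replicate 2 lowest. The log2 fold change was -0.10 with all tumours (limma adjusted p = 0.778) and 0.05 without vehicle replicate 1. Car9 (chromosome 4, 43506966 to 43513729), a cell-surface carbonic anhydrase used as a marker of hypoxia, was the least abundant member. It ranged from 2.04 to 3.11 FPKM in GSK343 and from 2.26 to 4.71 FPKM in vehicle tumours (log2 fold change -0.23, limma adjusted p = 0.486). Without vehicle replicate 1 it was -0.10. At this level the added 1 FPKM understates a fold change.

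Hif1a (chromosome 12, 73901375 to 73947530) had the smallest p of the members, and its mean was higher in GSK343 tumours. It measured 38.3, 30.8, 39.1, 28.7 and 44.0 FPKM in GSK343 tumours, against 31.7, 29.5, 33.4, 27.8 and 27.9 FPKM in vehicle tumours. GSK343 replicates 1, 3 and 5 lay above all vehicle tumours, and replicates 2 and 4 within their range. The means were 36.2 ± 6.32 and 30.1 ± 2.46 FPKM (GSK343, then vehicle; log2 fold change 0.25, interval -0.01 to 0.50, unadjusted p = 0.0599, limma adjusted p = 0.305). Without vehicle replicate 1 it was 0.26, and without GSK343 replicates 3 and 5 it was 0.11. With the pan-leukocyte score (the mean log2(FPKM + 1) of 12 leukocyte genes) as a covariate it was 0.04 (limma adjusted p = 0.999).

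Exons of Slc2a1, Bnip3, Car9 and Hif1a overlap those of another annotated gene on the opposite strand in GENCODE M21, and those of Hif1a also a gene on its own strand. With no strand setting stated for the quantification, reads of these overlapping stretches cannot be told apart.

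**Figure D2:**
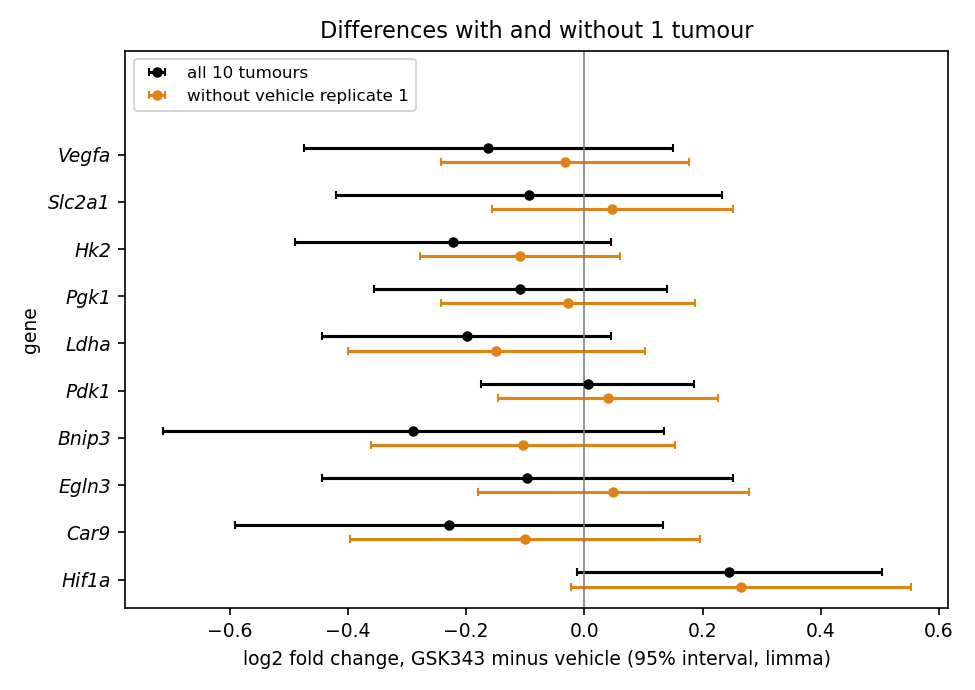
Log2 fold change of each member (horizontal axis, GSK343 minus vehicle on log2(FPKM + 1)) with its 95% limma interval, for all 10 tumours (black) and without vehicle replicate 1 (orange). Every interval includes 0, and leaving out that tumour moves Slc2a1 to 0.05 and Egln3 to 0.05.

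Across tumours most of the correlation between members rested on vehicle replicate 1. The median Pearson r of log2(FPKM + 1) over the 45 pairs of members was 0.64, with a range from -0.53 to 0.92 (n = 10 tumours). It was 0.09 without vehicle replicate 1. The tumours share the hepatoma line and the library protocol. By a permutation test with 100000 resamples, two-sided, 6 of 45 pairs had an adjusted p of r under 0.05 and 19 an unadjusted one. By Spearman's rho 0 of 45 pairs passed (smallest adjusted p = 0.0535), and 4 had an unadjusted p under 0.05.

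The 6 pairs were Pgk1 with each of Slc2a1, Ldha, Bnip3, Egln3 and Car9, and Bnip3 with Egln3. Pgk1 and Egln3 gave r = 0.92 (permutation p = 5e-05, adjusted 0.00225) and rho = 0.89 (permutation p = 0.00119, adjusted 0.0535). Without vehicle replicates 1 and 2, the tumours farthest from the median of Pgk1, r was 0.74, and without vehicle replicate 1 alone it was 0.82. On deviations from the group means the same pair gave r = 0.92 (exact permutation within groups, adjusted p = 0.0312) and was the 1 pair of 45 to pass. Bnip3 and Egln3 gave r = 0.89 (permutation p = 0.0056, adjusted 0.0482) and rho = 0.72, with r = 0.57 without vehicle replicate 1 and 0.87 without vehicle replicates 1 and 6. Pgk1 and Bnip3 gave r = 0.87 (permutation p = 0.00166, adjusted 0.0373) and rho = 0.75, with r = 0.68 without vehicle replicate 1 and 0.69 without vehicle replicates 1 and 2. Without these last 2 tumours, r of Pgk1 was 0.29 with Ldha and 0.06 with Car9, against 0.80 and 0.84 over all 10. Without vehicle replicate 1 alone it was 0.70 and 0.63, so the high r of both pairs rests on the 2 tumours together. Slc2a1 and Pgk1 gave r = 0.82 over all tumours, 0.54 without vehicle replicate 1 and 0.77 without vehicle replicates 1 and 6.

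No pair with Vegfa passed the adjusted threshold (smallest adjusted permutation p = 0.107). Over the 10 tumours its r was 0.70 with Pgk1, 0.67 with Hk2, 0.43 with Ldha and 0.34 with Pdk1, and without vehicle replicate 1 it was 0.19, -0.42, -0.07 and -0.04 in that order. Vegfa and Slc2a1 gave r = 0.80 (permutation p = 0.0313, adjusted 0.107) and rho = 0.50 over 10 tumours. Leaving out vehicle replicate 1 took r to 0.17, and leaving out that tumour and GSK343 replicate 4 to 0.27. Vegfa and Bnip3 gave r = 0.77 (permutation p = 0.0468, adjusted 0.112) and rho = 0.32, and r = 0.02 without vehicle replicate 1. The high values of r with Slc2a1 and Bnip3 rest on vehicle replicate 1.

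Hif1a and Pdk1 had low correlations with the rest. The median r of Hif1a with the other 9 members was -0.02, ranging from -0.53 with Ldha to 0.14 with Vegfa. That of Pdk1 was 0.18. For comparison, the median r with the other members was 0.80 for Pgk1, 0.73 for Slc2a1 and for Bnip3, 0.72 for Car9 and 0.70 for Vegfa and for Egln3. It was 0.64 for Hk2 and 0.63 for Ldha. With vehicle replicate 1 left out, the median over the 28 pairs without Hif1a and Pdk1 was 0.22. It was then 0.04 over the 9 pairs with Hif1a and -0.24 over the 9 pairs with Pdk1. The median r of each member with all other lines tested lay between -0.12 and 0.10.

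**Figure D3:**
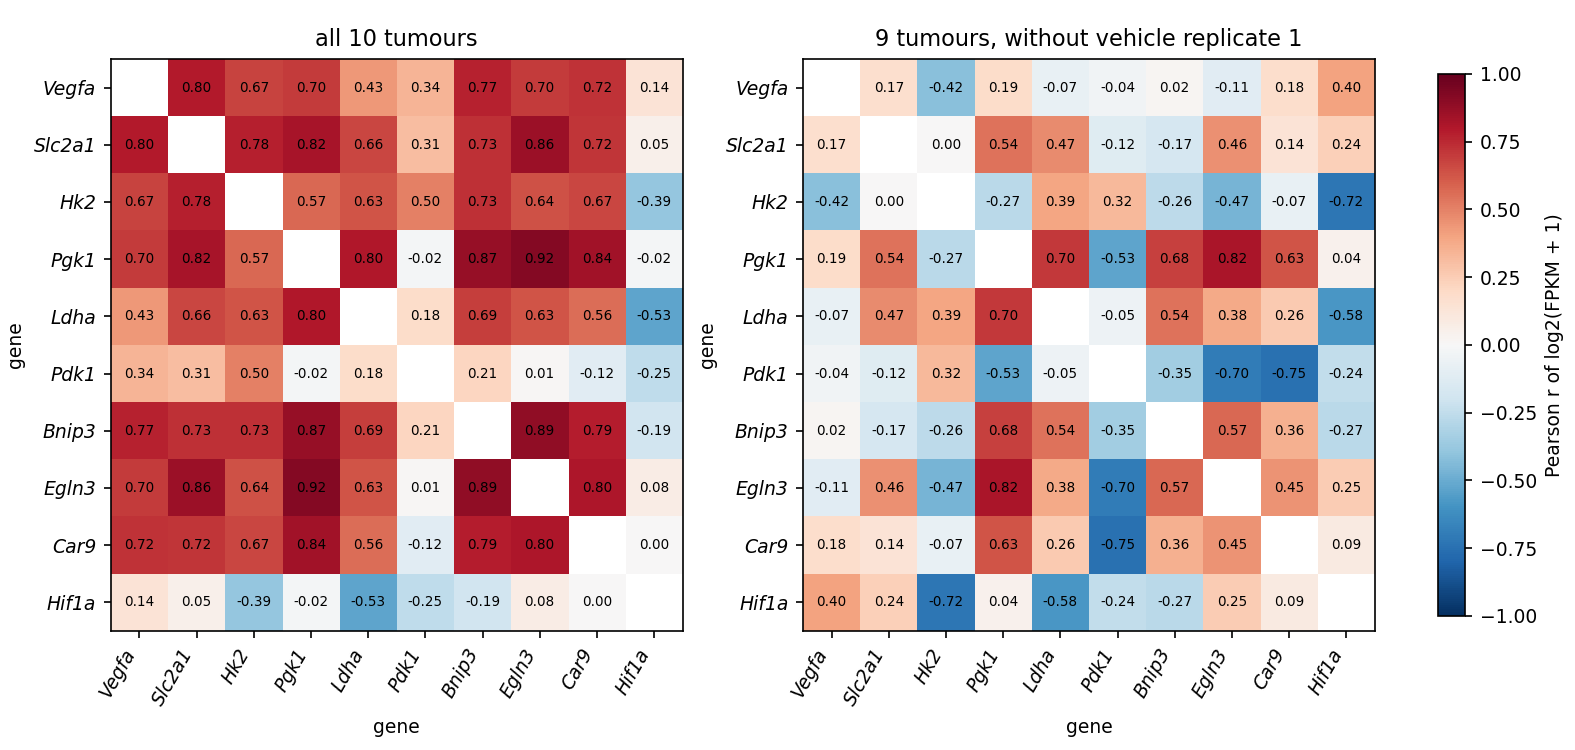
Pearson r of log2(FPKM + 1) for every pair of members over all 10 tumours (left) and over 9 tumours without vehicle replicate 1 (right), on a colour scale from -1 to 1. The block of high values on the left thins out on the right, where Pgk1 with Egln3 keeps 0.82 and Vegfa with Slc2a1 has 0.17.

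**Figure D4:**
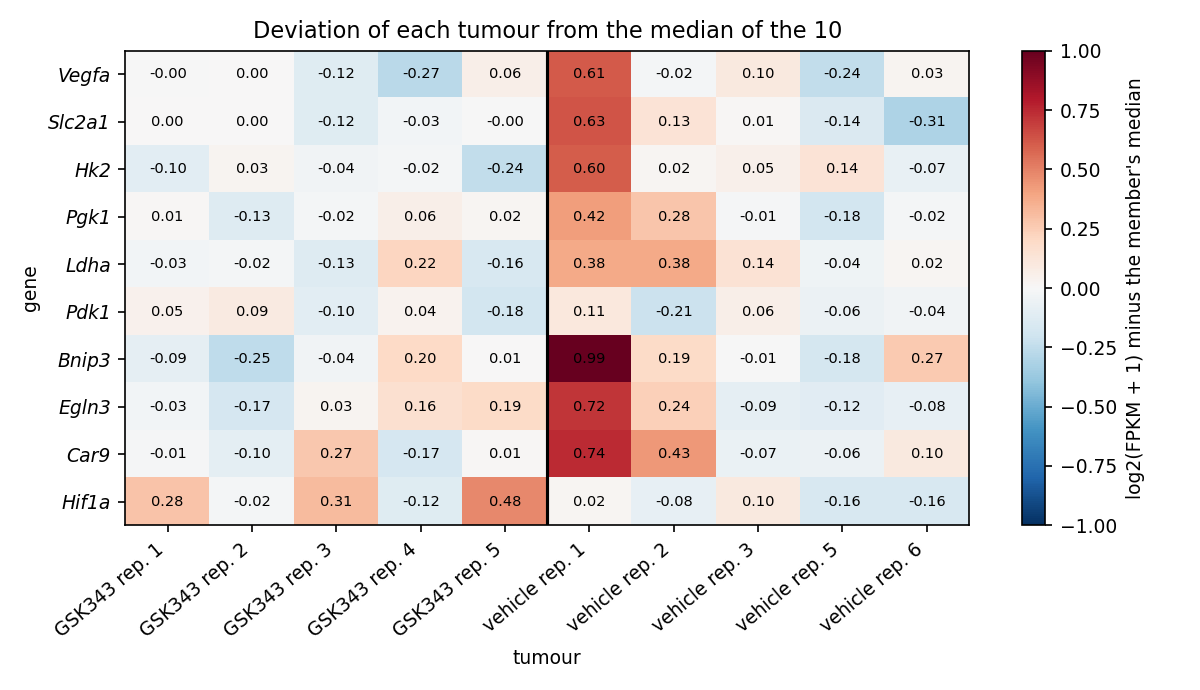
Deviation of each tumour's log2(FPKM + 1) from the member's median over the 10 tumours (colour and printed value), GSK343 tumours left of the line and vehicle tumours right of it. The column of vehicle replicate 1 is raised for most members but not for Hif1a, whose highest value is in GSK343 replicate 5.

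No relation between a member and the markers of a cell type passed the adjusted threshold. Relations of the 10 members to scores of 7 marker lists were computed after the members' values had been seen, 70 in all. By the permutation test 0 of 70 had an adjusted p under 0.05 for r or for rho, and 10 had an unadjusted p under 0.05 for r and 8 for rho. Hif1a gave r = 0.85 (permutation p = 0.00146, adjusted 0.102) and rho = 0.85 with the fibroblast score. With the endothelial score it gave r = 0.78 (permutation p = 0.00747, adjusted 0.147) and rho = 0.77, and r = 0.92 without GSK343 replicate 5 and vehicle replicate 2. It gave r = 0.75 (permutation p = 0.0136, adjusted 0.183) and rho = 0.68 with the pan-leukocyte score. Without the 2 tumours farthest from the median score, r was 0.67 with the fibroblast score (without GSK343 replicate 5 and vehicle replicate 6) and 0.81 with the pan-leukocyte score (without vehicle replicates 1 and 6). On deviations from the group means r was 0.76 with the fibroblast, 0.71 with the endothelial and 0.59 with the pan-leukocyte score. The 12 leukocyte genes summed to 651 to 1099 FPKM in GSK343 tumours and 322 to 916 FPKM in vehicle tumours, with none listed at 0. The 10 fibroblast genes summed to 1542 to 2348 FPKM in GSK343 tumours and 1587 to 2005 FPKM in vehicle tumours, with none listed at 0. At an unadjusted limma p under 0.05, 7 of these 10 were higher in GSK343 tumours, against 10.7% of all lines. Without vehicle replicate 1 there were 5 of 10, against 7.94% of all lines, and 0 passed the adjusted threshold either way. The fibroblast score ran higher in GSK343 tumours, with overlap, at 5.34 to 6.36, against 5.07 to 5.72 in vehicle tumours. The leukocyte score also ran higher in GSK343 tumours, at 5.09 to 5.94, against 4.18 to 5.48 in vehicle tumours. The covariate fit above therefore cannot separate leukocytes from the treatment. The part of these cell types in the level of Hif1a was not tested.

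The relations of Hk2 and Egln3 to other lists did not pass either. Hk2 gave r = 0.88 (permutation p = 0.00382, adjusted 0.134) and rho = 0.66 with the liver tumour cell score, and r = 0.80 without GSK343 replicate 3 and vehicle replicate 1. The 12 genes of that list summed to 6058 to 7750 FPKM in GSK343 and 7400 to 9957 FPKM in vehicle tumours. Of these 12, 10 had a log2 fold change below 0, against 52.4% of all lines. At an unadjusted limma p under 0.05, 4 were lower in GSK343 tumours, against 6.86% of all lines. Without vehicle replicate 1 these counts were 10 and 3, against 54.8% and 5.75% of all lines. In both fits 0 passed the adjusted threshold. Egln3 gave r = 0.74 (permutation p = 0.00842, adjusted 0.147) and rho = 0.78 with the red blood cell score, and r = 0.44 without GSK343 replicate 4 and vehicle replicate 1. The same score gave r = 0.63 with Slc2a1, 0.61 with Pgk1 and 0.58 with Bnip3 (permutation p = 0.0362, 0.0601 and 0.0690 in that order, adjusted 0.316 to 0.364). On deviations from the group means r with this score was 0.86 for Egln3, 0.84 for Bnip3, 0.79 for Pgk1 and 0.76 for Hk2. It was 0.75 for Slc2a1, 0.73 for Car9, 0.67 for Ldha and 0.51 for Vegfa, against 0.20 for Pdk1 and 0.04 for Hif1a. Without GSK343 replicate 4 and vehicle replicate 1, r over the remaining tumours was 0.33 for Slc2a1, 0.26 for Pgk1 and -0.15 for Bnip3. It was then 0.70 for Hif1a, 0.46 for Car9, -0.07 for Vegfa, -0.25 for Ldha and -0.32 for Hk2 and for Pdk1. The tumours with the next highest red blood cell sums after vehicle replicate 1 were GSK343 replicates 4 and 3, at 2062 and 1573 FPKM. The part of these cells in the members' levels and in the correlations between members was not tested.

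**Figure D5:**
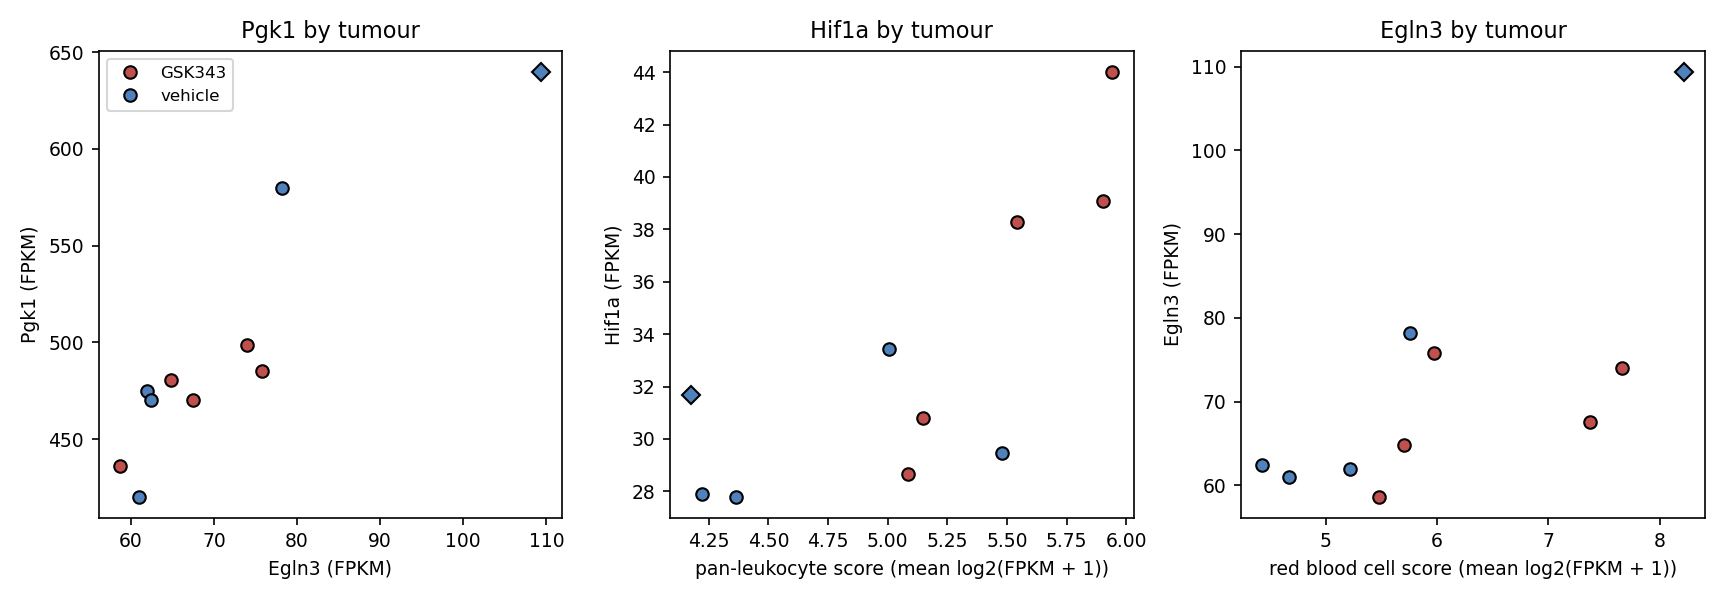
Pgk1 against Egln3, Hif1a against the pan-leukocyte score and Egln3 against the red blood cell score (FPKM on the vertical axes, scores as mean log2(FPKM + 1)), 1 point a tumour, GSK343 red, vehicle blue, vehicle replicate 1 a diamond. Hif1a is highest in GSK343 replicate 5 at 44.0 FPKM, the tumour with the highest leukocyte score, 5.94.

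Among the factors and enzymes that set HIF activity, 0 of 10 tested genes passed the adjusted threshold, Hif1a and Egln3 included. Without these, 1 of 8 had an unadjusted p under 0.05, lower in GSK343 tumours, as had 6.86% of all lines. This was Egln1, the main oxygen-sensing prolyl hydroxylase (PHD2), at 45.1 ± 3.13 FPKM in GSK343 and 56.1 ± 7.01 FPKM in vehicle tumours (log2 fold change -0.30, limma adjusted p = 0.192). Its groups did not overlap, at 42.6 to 48.9 FPKM in GSK343 and 50.3 to 67.4 FPKM in vehicle tumours, and 1.2% of all lines were lower in GSK343 without overlap. Arnt, the partner subunit of HIF, measured 15.2 ± 1.75 and 17.3 ± 2.13 FPKM (GSK343, then vehicle; limma adjusted p = 0.388). Hif1an, the asparaginyl hydroxylase of HIF, measured 7.50 ± 0.947 and 8.37 ± 0.790 FPKM in the same order. Hif3a stayed below the filter and was listed at 0 in some tumours.

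Of the other glycolysis steps, 0 of 30 tested genes passed, 4 were higher and 2 lower at an unadjusted p under 0.05, and the median log2 fold change was -0.05. These counts are 13.3% and 6.67% of the list, near the 10.7% and 6.86% of all lines. Pdk3, another pyruvate dehydrogenase kinase, measured 4.43 ± 0.608 FPKM in GSK343 and 3.09 ± 0.408 FPKM in vehicle tumours without overlap (log2 fold change 0.41, limma adjusted p = 0.191), and 1.42% of all lines were higher without overlap. Hk3, a hexokinase of blood cells, measured 18.8 ± 6.04 FPKM in GSK343 and 8.84 ± 7.10 FPKM in vehicle tumours (limma adjusted p = 0.206). Slc16a1, a lactate carrier, measured 22.5 ± 2.92 FPKM in GSK343 and 27.8 ± 2.69 FPKM in vehicle tumours (limma adjusted p = 0.208). Slc2a2, the glucose carrier of normal hepatocytes, was below the filter and listed at 0 in some tumours.

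Of the other hypoxia-induced genes, 0 of 24 tested genes passed, 2 were higher and 1 lower at an unadjusted p under 0.05, and the median log2 fold change was 0.05. These counts are 8.33% and 4.17% of the list, below the 10.7% and 6.86% of all lines. Leaving out vehicle replicate 1 gave 3 and 0, or 12.5% and 0% of the list, against 7.94% and 5.75% of all lines. The list's median was then 0.11, against -0.02 over all lines. Lox and Plod2, which crosslink and modify collagen, measured 18.4 ± 9.07 and 2.28 ± 0.806 FPKM in GSK343 tumours, against 9.55 ± 2.83 and 1.27 ± 0.502 FPKM in vehicle tumours. Jmjd6, an oxygen-dependent hydroxylase, measured 42.6 ± 9.43 FPKM in GSK343 and 55.9 ± 5.79 FPKM in vehicle tumours (limma adjusted p = 0.236). Its groups did not overlap, and 1.2% of all lines were lower in GSK343 without overlap. GSK343 replicate 4 was lowest, at 26.2 FPKM, against 42.8 to 48.3 FPKM in the other GSK343 tumours. Zfp395 measured 7.74 ± 1.06 and 9.52 ± 1.80 FPKM (GSK343, then vehicle). Ndrg1, a strongly hypoxia-induced gene named here after its values were seen, lay at 141 to 158 FPKM in GSK343 tumours and 144 to 342 FPKM in vehicle tumours. Its highest value was again that of vehicle replicate 1, and the other 4 vehicle tumours reached at most 157 FPKM.

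In the VEGF family and its receptors, 0 of 10 tested genes passed, and 3 were higher at an unadjusted p under 0.05, against 10.7% of all lines. These were receptors. Leaving out vehicle replicate 1 left 2 of 10, against 7.94% of all lines higher. Flt1 (VEGFR1) measured 11.7 ± 3.81 FPKM in GSK343 and 6.72 ± 1.62 FPKM in vehicle tumours (log2 fold change 0.69, limma adjusted p = 0.192). Nrp1 and Nrp2, the neuropilin co-receptors, measured 7.42 ± 1.16 and 4.995 ± 1.31 FPKM in GSK343 tumours, against 5.31 ± 0.685 and 3.59 ± 0.800 FPKM in vehicle tumours. Kdr (VEGFR2), the main signalling receptor on endothelium, measured 1.41 ± 0.179 and 1.203 ± 0.116 FPKM (GSK343, then vehicle). The 12 endothelial markers summed to 105 to 135 FPKM in GSK343 and 102 to 130 FPKM in vehicle tumours, and none was listed at 0. Macrophages and fibroblasts can also express Flt1 and neuropilins, and the part of these cells was not tested.

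The genes outside the members whose pattern was most like that of Vegfa, among 8599 named lines averaging 5 FPKM or more, were Tigd2 (r = 0.94), Fkbp5 (r = 0.91) and Pvr (r = 0.91) over the 10 tumours. Each was highest in vehicle replicate 1, and without it r was 0.75, 0.60 and 0.72 in that order. Fkbp5, a glucocorticoid-induced cochaperone, measured 36.9 FPKM in that tumour, against 14.0 to 19.5 FPKM in GSK343 tumours and 14.1 to 18.5 FPKM in the other vehicle tumours.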

How the data were processed

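Poly-A selected RNA of 5 GSK343 and 5 vehicle tumours was sequenced. The authors deposited 1 value per gene and tumour, read here as FPKM from the values, which are not whole and summed to between 574547 and 623397 per tumour. The tools were StringTie 1.3.3b, HISAT2 2.1.0 and Trimmomatic 0.33, with build mm10, per the submitters' processing notes. Their options, annotation and strandedness were not given in the sources used here. The table holds no counts, so precision is given as the spread between tumours. The series' design text calls the tumours biological replicates.

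From these, log2(FPKM + 1) was tested with limma 3.58.1 (R 4.3.3, intensity trend, two-sided, Benjamini-Hochberg) over 14496 lines averaging 1 FPKM or more. Fold changes on this scale understate those of low genes. The test was checked on simulated data with independent normal noise in each line and added changes larger than those of the members. This check does not cover a tumour that stands apart in many lines at once. Correlations used 100000 resamples, or all orders where fewer than 10 tumours entered. Named were all members, up to 4 genes with the smallest p per pathway list, and the 3 lines most like Vegfa; others are marked, and some genes of the lists are counted but not reported here by name. Members and lists were chosen with earlier results of these data known. Promoter windows came from RefSeq (GRCm38.p6), overlaps from GENCODE M21. Alternatives covered filter, pseudocount, scaling, weights, a leukocyte covariate, the replicate number, and tumours left out. Plots used matplotlib 3.10.9 (Python 3.11.15).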

Additional observations from a re-analysis of the deposited data

Results flagged for a closer look

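Dixon's ratio was applied to each member in each treatment, 20 sets of 5 tumours. It marked 3 values that lay far from the rest of their set, where chance marks about 1 in 20. Hk2 was at 46.3 FPKM in vehicle replicate 1, against 28.6 to 33.3 FPKM in the other vehicle tumours. Bnip3 was at 351 FPKM in the same tumour, against 155 to 211 FPKM in the other vehicle tumours. Slc2a1 was at 60.8 FPKM in GSK343 replicate 3, below 65.1 to 66.6 FPKM in the other GSK343 tumours.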

How the results depend on the processing

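None of the 10 members passed the adjusted threshold under any of the alternatives run, 199 values in all, of which 190 kept their direction and the smallest adjusted p was 0.165 (Hif1a without GSK343 replicate 4). With single tumours left out, the log2 fold change ran from -0.188 (vehicle replicate 6) to 0.0473 (vehicle replicate 1) for Slc2a1, from -0.159 (vehicle replicate 5) to 0.0492 (vehicle replicate 1) for Egln3, and from -0.0400 (vehicle replicate 2) to 0.0465 (GSK343 replicate 5) for Pdk1, so the sign turned in each of these genes. The sign also turned for Egln3 with tumour weights (0.0061) and for Pdk1 with the replicate block (-0.011). Car9 has no value at a mean of at least 5 FPKM, being below that filter. The cause of these turns was not tested. Over all lines, 12 passed in the main test, 6 with no filter, 3 at a mean of at least 5 FPKM, 7 with quantile normalization, 2 with the pan-leukocyte covariate, 2 with the replicate block, and 4 without GSK343 replicates 3 and 5. Leaving out single tumours gave 3 (GSK343 replicate 3 or 4) to 96 (vehicle replicate 2). Of the 45 pairs, 6 passed in the main test, 11 with median-of-ratios scaling, 2 with pseudocount 0.1, 1 on deviations from the group means, and 1 to 9 with single tumours left out. Pgk1 with Egln3 was among them in all 13 alternatives. With named copies summed into Pgk1 and Ldha, an alternative chosen after seeing the data, 12 lines passed. Neither gene had passed in the main test, and neither passed here (limma adjusted p = 0.658 and 0.375). The correlations between members were not rerun with the copies summed. The replicate numbers did not pair the tumours: deviations of the 4 same-numbered pairs correlated at -0.33 to 0.03, and 0 of 4 GSK343 tumours correlated best with their own number. The table holds no counts, so limits from depth cannot be given.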
